A study of Mus musculus with 2 samples.

Results

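Pericytes and vascular smooth muscle cells, together called mural cells, were taken from 2 droplet libraries of dissociated mouse uterus. A barcode counted as a member if it carried at least 4 UMIs, from at least 2 genes, of Rgs5, Notch3, Ndufa4l2, Vtn and Sgip1, with at most 1 UMI each of Epcam, Pecam1 and Ptprc and at most 3 of Des. Members were thus chosen by measured values of these genes. Only barcodes with 1000 UMIs or more, 500 genes or more and no more than 15% of UMIs from mitochondrial genes entered. Of 14848 barcodes that passed, 285 were members: 122 of 7783 in the library named DOX (1.57%, exact 95% interval 1.30 to 1.87) and 163 of 7065 in the library named DOX plus AMH (2.31%, 1.97 to 2.68). A UMI is 1 counted RNA molecule, and the intervals here and below cover counting error only. The 5 rule genes chose the members, so their levels are a description and support nothing.

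DOX is the uterus of mice given 3 mg/kg of doxorubicin, a chemotherapy drug that traps topoisomerase II on broken DNA. DOX plus AMH is the uterus of mice given the same dose with anti-Müllerian hormone (AMH) at 0.75 mg/kg. Both were taken at 4 h, and the uteri of 5 animals were pooled into 1 library per group, so no difference between the groups has a replicate check and none was tested. Every animal had doxorubicin and no untreated library was compared. The series text describes 2 weekly doses in prepubertal mice for bulk sequencing, while schedule and age are not stated for the animals used here.

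Pericytes sit in the basement membrane of capillaries and small venules, and vascular smooth muscle cells wrap arterioles and larger vessels. Both depend on PDGF-B from the endothelium acting on the receptor PDGFRB, and both use NOTCH3 signalling for their maturation. They set vessel tone through actin and myosin contraction, potassium channels and cyclic GMP, and they deposit part of the vessel's collagen and laminin. In the uterus the spiral arteries and the capillary bed of the endometrium carry such cells.

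The members held 1521143 and 1254422 UMIs in DOX and DOX plus AMH, the order in which all paired values are given, with medians of 8761 and 6400 UMIs per cell against 13975 and 10221 over all barcodes that passed. Scrublet called 4 and 6 members doublets, and they were kept. The libraries shared 17 barcode sequences, and 0 of these were members. Per cell, the 5 rule genes together gave 4 UMIs at the lowest, 9 at the median and 61 at the highest in DOX, and 4, 14 and 126 in DOX plus AMH. Of the rule genes, Rgs5, an inhibitor of G protein signalling, was found in 89 and 142 members, Notch3 in 103 and 147, Ndufa4l2, a mitochondrial complex subunit typical of pericytes, in 75 and 90, Sgip1 in 78 and 113, and Vtn, which encodes vitronectin, in 41 and 58. All 5 were found in 18 and 27 members, and 48 and 40 members carried 2 of them.

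The members did not form 1 cell type. Leiden clustering without the rule genes, and with interferon genes among those it could use, gave 5 clusters, which are compared here by number. Cluster 1, of 98 cells (39 and 59), was led by Gria2, Higd1b, Trpc6, Npr3 and Abcc9, and is pericyte-like by the markers listed for that type, of which Higd1b, Abcc9, Kcnj8 and Pdgfrb were highest here. Cluster 2, of 72 cells (15 and 57), was led by Rcan2, Rasd1, Prkg2 and Pln with the listed marker Mustn1, and is vascular smooth muscle-like. Levels are given in CPM, the UMIs of a gene summed over the cells of a cluster and library and scaled to a common total. The Acta2 of cluster 2, the smooth muscle actin, stood at 7441 and 7220.3 CPM, against 1142 and 786 CPM in cluster 1. Cluster 5, of 30 cells (9 and 21), was led by Cxcl1, Tnc, Fabp4, Nr4a3 and Rgs16 and stays unnamed, although its Pdgfrb was at 506 and 459 CPM.

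Clusters 3 and 4, of 45 and 40 cells, went against the label in their sums, although cluster 3 was mixed. Dcn, the proteoglycan decorin of fibroblasts, was at 3203 and 4417 CPM in cluster 3 and at 5962 and 5443 CPM in cluster 4, beside 4063 and 3885 CPM in a stromal gate, the remaining barcodes with at least 2 UMIs each of Pdgfra and Dcn. Lum, another fibroblast proteoglycan, was at 1393 and 1433 CPM in cluster 4 and at 14.1 and 12.7 CPM in cluster 1. Higd1b, a hypoxia-induced gene typical of pericytes, was at 0 in both libraries of cluster 4. More than 1 UMI of Pdgfra, the stromal PDGF receptor, was found in 54 of the 85 cells of clusters 3 and 4 and in 5 of the 200 cells of clusters 1, 2 and 5. By library this was 13 of 31 and 11 of 14 cells in cluster 3 and 19 of 28 and 11 of 12 in cluster 4. A DOX cell of cluster 3 had 38.2 UMIs of the rule genes per 10000. Another had contractile genes at 39784 CPM and stromal markers at 490 CPM. Clusters 3 and 4 were deep, with medians of 17836 and 15504.5 UMIs against 6094 and 5696 in the other 3, so the fixed minimum of 4 UMIs was a smaller share of each cell there. They made up 59 of 122 and 26 of 163 members but 74.5% and 35.5% of the members' UMIs. Sums over all members therefore compare different mixtures in the 2 libraries. For this reason the comparisons below lead with clusters 1, 2 and 5 (63 and 137 cells, 387681 and 809657 UMIs) and give all members beside them. That choice was made after the cluster levels were seen. These 3 clusters also entered in unlike shares, cluster 1 with 212691 and 314329 UMIs and cluster 2 with 103878 and 371035. Sums over the 3 together thus also compare different mixtures.

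**Figure D1:**
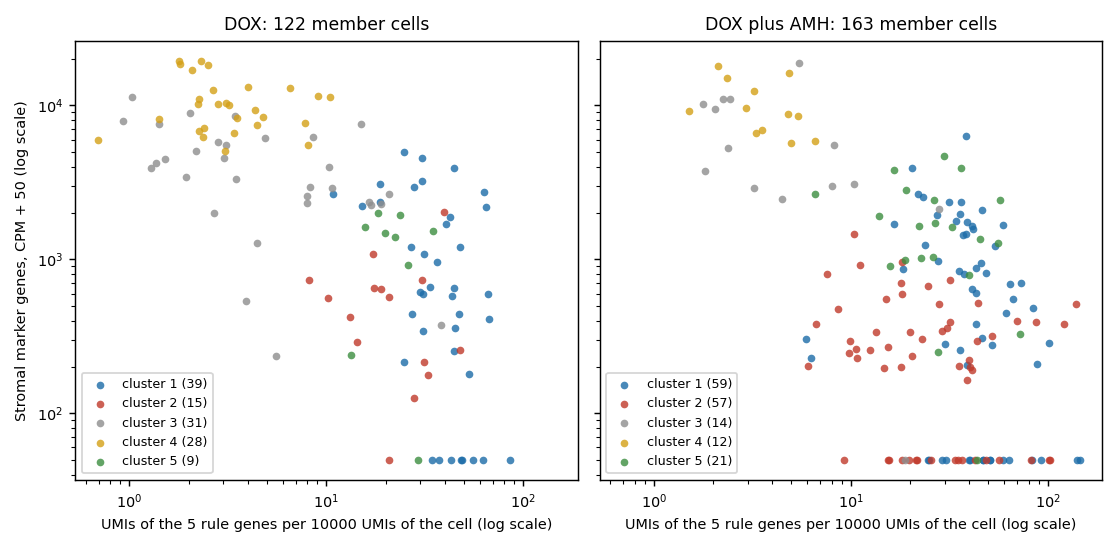
Each point is 1 member cell, placed by its UMIs of the 5 rule genes per 10000 UMIs (horizontal, log scale) and by the summed CPM of 11 stromal marker genes plus 50 (vertical, log scale), coloured by cluster, with DOX on the left and DOX plus AMH on the right. Clusters 3 and 4 lie mainly at the upper left in both libraries, and clusters 1, 2 and 5 mainly at the right. They overlap: a DOX cell of cluster 3 lies at 38.2 rule UMIs per 10000 and a DOX plus AMH cell of cluster 1 at 5.89.

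Among clusters 1, 2 and 5 the vessel-wall genes were split as follows. Kcnj8 and Abcc9, the pore and the regulatory subunit of the vascular ATP-sensitive potassium channel, were at 277 and 245 CPM and 306 and 353 CPM in cluster 1 and at 96.3 and 59.3 CPM and 28.9 and 53.9 CPM in cluster 2. Pdgfrb was at 809 and 741 CPM in cluster 1 and at 250.3 and 326 CPM in cluster 2. Cspg4, the pericyte proteoglycan NG2, ran the other way, at 127 and 134 CPM and 231 and 278 CPM. Myh11, the smooth muscle myosin heavy chain, was at 212 and 315 CPM in cluster 1 and 1396 and 1954 CPM in cluster 2. Kcnj8 gave a check on free RNA: after thinning each cell to 2000 UMIs, 35.6% and 22.4% of the cells of clusters 1, 2 and 5 had a UMI (58.7% and 45.3% unthinned, medians 6094 and 5696 UMIs), against 0.711% and 1.23% of leukocyte-gate cells (2.28% and 3.9% unthinned, medians 9337 and 10481 UMIs). Of the markers of other cells, the 11 stromal genes summed to 1034 and 714 CPM in clusters 1, 2 and 5 (1 at 0 in each library) and the 8 visceral muscle genes to 356 and 474 CPM. There the 9 blood endothelial markers summed to 132 and 81.5 CPM and the 7 leukocyte markers to 49 and 34.6 CPM. Haemoglobin genes summed to 48.1 and 29992 CPM in cluster 2, where 3 DOX plus AMH cells had over 5% of their UMIs from them.

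**Figure D2:**
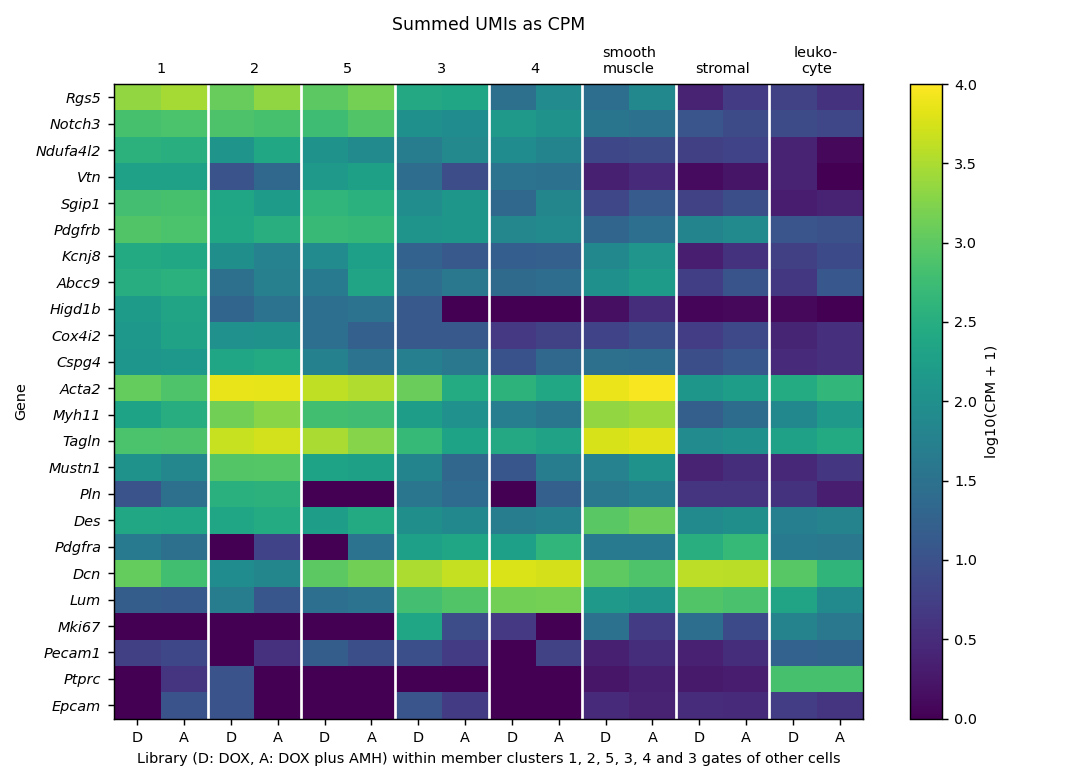
Level of 24 marker genes (rows) as log10(CPM + 1) of summed UMIs in the 5 member clusters and in smooth muscle, stromal and leukocyte gates of the remaining cells, DOX (D) and DOX plus AMH (A) side by side. Higd1b is highest in cluster 1, Acta2 and Mustn1 are high in cluster 2, and Dcn is high in clusters 3 and 4 and in the stromal gate.

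Cells just inside and just outside a threshold are given as values. Members with exactly 4 rule UMIs numbered 20 and 12 and had Dcn at 4861 and 4594 CPM, and the barcodes just outside, with exactly 3, numbered 30 and 24 and had Dcn at 4525 and 5366 CPM. Members with 3 UMIs of Des, the intermediate filament desmin of muscle, numbered 24 and 40 and had Rgs5 at 389 and 1978 CPM, and barcodes with 4 numbered 31 and 32 and had Rgs5 at 1092 and 1593 CPM. In DOX the barcodes with 4 Des UMIs thus had the higher Rgs5, and in DOX plus AMH the members with 3 did. In all, 200 and 228 barcodes met every other condition but had over 3 Des UMIs. They held Rgs5 at 674 and 1503 CPM, Notch3 at 380 and 534 CPM, Myh11 at 1520 and 1969 CPM and Acta2 at 7230 and 7334 CPM. Of these, 167 and 192 had at most 1 UMI of Actg2, the enteric-type smooth muscle actin used as a marker of visceral muscle. The Des limit thus set aside more barcodes in each library than there were members, and those barcodes had Acta2 close to that of cluster 2.

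Interferon-response genes had the lowest median ratio of the lists with over 1 gene counted in clusters 1, 2 and 5, and Bst2 and Isg15, those with the most UMIs, were lower in DOX plus AMH in each of these clusters. Bst2, which encodes tetherin, a membrane protein that holds budding virus particles, was at 1313 (1201 to 1432) and 256 (222 to 293) CPM in clusters 1, 2 and 5. The log2 ratio, DOX plus AMH over DOX, is 0 for equal levels and has a 95% counting interval, and that of Bst2 was -2.36 (-2.60 to -2.12). By cluster its level was at 1119 and 261 CPM in cluster 1, 1425 and 202 CPM in cluster 2 and 1729.7 and 402 CPM in cluster 5, and the DOX value was the higher in each. Isg15, a ubiquitin-like modifier, was at 423 (361 to 493) and 53.1 (38.4 to 71.5) CPM, a log2 ratio of -2.99 (-3.51 to -2.50). It was at 484 and 105 CPM in cluster 1 and 154 and 21.6 CPM in cluster 2, and in cluster 5 80% of its DOX UMIs were in 1 cell. Ifit3, whose protein belongs to a family that binds foreign RNA, was at 126 and 8.65 CPM from 49 and 7 UMIs, a log2 ratio of -3.87 (-5.26 to -2.72). Ifi27l2a, a small membrane protein gene induced by interferon, was at 235 and 69.2 CPM. Ifi27l2a was likewise the lower in DOX plus AMH in clusters 1, 2 and 5 taken one by one. Ifit1, of the same family as Ifit3, had 25 and 12 UMIs in cluster 1 and 0 and 1 UMIs in cluster 2.

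Over the list of 39 interferon-response genes, 7 had at least 50 UMIs in clusters 1, 2 and 5. Of these, 6 were at least 1.5-fold lower and 0 higher, beside 7.16% of all 3840 genes counted there that were lower and 12.7% that were higher. The list's median log2 ratio was -1.76, and that of all genes 0.05. The exception was Parp14, at 54.2 and 51.9 CPM. Over all members, 31 of 31 counted genes were at least 1.5-fold lower, beside 12.5% of all 7229 genes (13% were higher), with a median of -2.27. Much of that sum came from cluster 4, where Isg15 was at 943 and 57.1 CPM. Interferon genes were among those that set cluster 4 apart, so its level is a description. In other cells of the same libraries the list's median was -1.52 in the smooth muscle gate (34 of 34 lower, beside 5.98% of all genes there), -0.93 in the stromal gate (28 of 38, beside 3.83%) and -0.39 in the blood endothelial gate (13 of 36, beside 8.36%). Isg15 was at 89.9 and 9.02 CPM in the smooth muscle gate, 97.5 and 22.1 CPM in the stromal gate and 209 and 135 CPM in the blood endothelial gate. The direction was thus the same in these 3 gates. In the leukocyte gate the median was -1.63 (36 of 38 lower, beside 8.0% of all genes there). A gate of mesothelial cells stood nearer 0, with a median of -0.11 (6 of 36 lower and 2 higher, beside 15.7% and 9.43%). Differences between these medians were not tested.

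The difference lay in many cells of cluster 1. There the 38 list genes found in the data summed to a median of 1803 CPM (range 0 to 22542) per DOX cell. Per DOX plus AMH cell the median was 705 CPM (range 0 to 5465). The ranges overlapped, and the highest cell was in DOX. In cluster 2 the medians were 843 and 369 CPM. Interferon-gene UMIs in barcodes of other cell types were also lower in DOX plus AMH. The list genes counted there summed to 728 and 353 CPM in an epithelial gate. In the leukocyte gate they summed to 13383.5 and 3951 CPM. The part of free RNA in the cluster values was not tested. The single highest cell held 25% of the DOX UMIs of Isg15 and 18.1% of those of Bst2 in clusters 1, 2 and 5. With the highest cell of each library left out, the log2 ratios were -2.98 for Isg15 and -2.16 for Bst2. In cluster 2, with 15 DOX cells, 1 cell held 62.2% of the DOX UMIs of Bst2 and 50% of those of Isg15, and the log2 ratio of Bst2 there was -1.74 without the highest cells. Rsad2, encoding the antiviral enzyme viperin, differed in this respect, since 1 cell held 88.9% of its 18 DOX UMIs.

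Many interferon-induced genes carry in their promoters the interferon-stimulated response element (ISRE), a short sequence through which interferon switches genes on. Promoter sequences were taken from RefSeq on GRCm38.p6, 250 bases before to 50 after each start, and searched on both strands for GAAA followed, after any 2 bases, by GAAA again. Of the 31 interferon genes counted over all members, 25 had a promoter in the table and 14 of these held a match (56%), against 3.99% of 27025 gene symbols with a promoter. A match describes these letters and does not show binding. The stretches of 5 genes, picked by hand among those with a match, are printed below 5′ to 3′ along the gene's strand, with the matches in capitals. They are thus examples of the motif only. Irf7, among the 4 list genes with the lowest ratios over all members, had no match and is not printed. A match on the opposite strand reads TTTC, any 2 bases and TTTC, and neighbouring matches overlap in Isg15 and Bst2.
Isg15: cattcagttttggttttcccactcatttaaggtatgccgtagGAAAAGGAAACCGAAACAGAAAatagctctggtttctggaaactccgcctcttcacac
Ifit1: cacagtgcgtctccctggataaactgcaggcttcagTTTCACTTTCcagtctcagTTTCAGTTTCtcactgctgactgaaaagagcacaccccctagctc
Ifit3: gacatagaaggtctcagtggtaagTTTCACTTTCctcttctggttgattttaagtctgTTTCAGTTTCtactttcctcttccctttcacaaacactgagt
Bst2: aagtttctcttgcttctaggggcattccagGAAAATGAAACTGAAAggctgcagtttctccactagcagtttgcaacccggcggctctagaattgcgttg
Rsad2: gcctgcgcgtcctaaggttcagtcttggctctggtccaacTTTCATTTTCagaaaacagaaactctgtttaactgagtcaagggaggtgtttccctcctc
The stretch of Isg15 is at chr4:156200839-156200938, minus strand, that of Ifit1 at chr19:34640749-34640848, plus strand, that of Ifit3 at chr19:34583349-34583448, plus strand, that of Bst2 at chr8:71537533-71537632, minus strand, and that of Rsad2 at chr12:26456513-26456612, minus strand. All 5 lie upstream of the transcript start. Isg15 has 3 overlapping matches on the gene's strand, at -78, -72 and -66 from the start. In Ifit1 and Ifit3, which neighbour each other on chromosome 19, both matches are on the opposite strand, at -104 and -85 and at -156 and -122. Bst2 has overlapping matches at -130 and -124, and Rsad2 has 1 at -120.

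The p53 targets were lower in DOX plus AMH in the sums, but for some the difference lay in few cells. p53 is the transcription factor that responds to DNA damage. Bax, a pro-apoptotic pore protein, was at 229.6 (184 to 283) and 71.6 (54.4 to 92.6) CPM in clusters 1, 2 and 5, a log2 ratio of -1.68 (-2.18 to -1.19). It was at 212 and 76.4 CPM in cluster 1, 164 and 51.2 CPM in cluster 2 and 379.7 and 121 CPM in cluster 5, lower in DOX plus AMH in each, and no cell held more than 10.3% of a library's UMIs in the 3 clusters together. Ei24, an endoplasmic reticulum protein gene induced by p53, was at 106 and 32.1 CPM, and Phlda3, which restrains AKT signalling, at 74.8 and 25.9 CPM. Mdm2, the ubiquitin ligase that limits p53, was at 95.4 and 40.8 CPM. Its log2 ratio was -1.30 in cluster 1 and -0.42 (-1.85 to 1.22) in cluster 2, where the interval spans 0.

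Cdkn1a, the cyclin-dependent kinase inhibitor p21, was at 325 and 79 CPM in clusters 1, 2 and 5, a log2 ratio of -2.04 (-2.50 to -1.59). Its level was at 103 and 19.1 CPM in cluster 1, 202 and 53.9 CPM in cluster 2 and 1167 and 306 CPM in cluster 5. A single DOX cell held 43.7% of the DOX UMIs, and with the highest cell of each library left out the log2 ratio was -1.51 (-2.05 to -0.97). In cluster 2 it was then -1.21 (-2.56 to 0.25) from 8 and 14 UMIs, an interval that spans 0. Of 38 p53 targets, 12 were counted in clusters 1, 2 and 5, of which 7 were at least 1.5-fold lower and 1, Ptp4a3, higher, beside 7.16% and 12.7% of all genes. Their median log2 ratio was -0.74. Over all members 19 of 27 were lower and 2 higher, beside 12.5% and 13% of all genes, with a median of -1.19. In the smooth muscle gate, Cdkn1a was at 621 and 312 CPM and Bax at 262 and 130.4 CPM. The list's median was -0.97 there, -0.34 in the stromal gate and -0.32 in the blood endothelial gate. Per cell, the list summed to nearly the same median in both libraries of cluster 1, 952 and 977 CPM, and of cluster 2, 1091 and 1164 CPM. The median pericyte-like cell thus had a similar summed level in both libraries, while the highest cells of cluster 1 had 5125 and 2777 CPM.

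**Figure D3:**
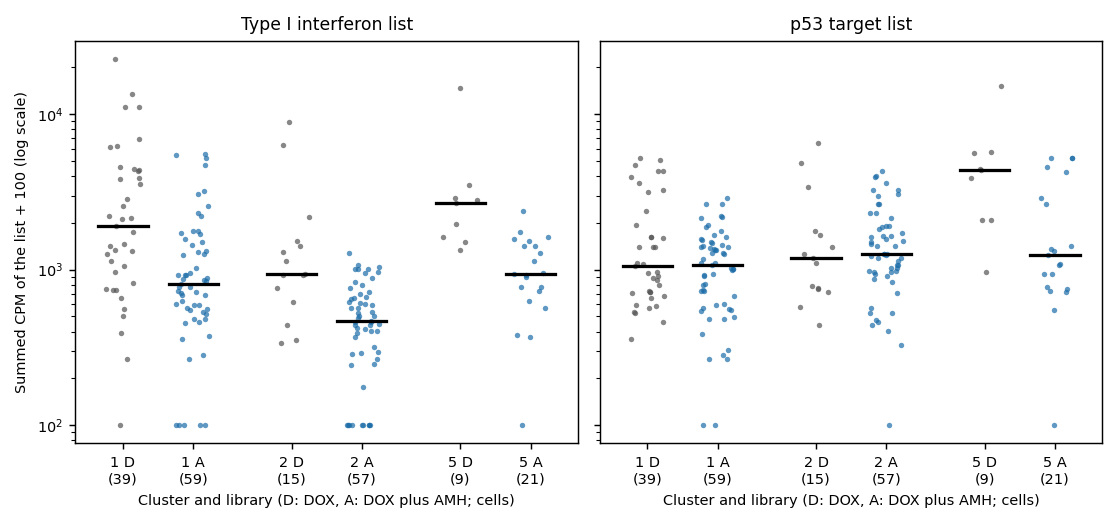
Summed CPM plus 100 (log scale) of the 38 interferon-response genes found in the data on the left and the 38 p53 targets on the right, 1 point per cell of clusters 1, 2 and 5, with DOX (D) in grey, DOX plus AMH (A) in blue and a line at the median. The interferon medians are lower in DOX plus AMH in all 3 clusters, whereas the p53 medians lie close together in clusters 1 and 2 and apart in cluster 5, which has 9 DOX cells.

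In DOX, most UMIs of 3 cytokine genes in cluster 5 lay in 1 cell for each gene. Cxcl1, a neutrophil chemokine and one of the genes that define this cluster, was at 984 and 153 CPM there against 14.1 and 3.18 CPM in cluster 1. Ccl2, the monocyte chemokine, was at 675 and 96.5 CPM, and Il6, the inflammatory cytokine, was at 27 and 0 UMIs. In DOX 1 cell of 9 held 61.4% of the Cxcl1 UMIs, 66.7% of the Ccl2 UMIs and 77.8% of the Il6 UMIs in cluster 5, so no library ratio is given for them. Ccl2 had 2 and 0 UMIs in cluster 1 and none in cluster 2. Il34, a ligand of the macrophage receptor CSF1R, was at 75.2 and 115 CPM in cluster 1 and 125 and 124 CPM in cluster 2, with log2 ratios of 0.61 (-0.28 to 1.56) and -0.01 (-0.93 to 1.00). Of 33 NF-kB target and chemokine genes, 8 were counted in clusters 1, 2 and 5, with 3 lower and 0 higher, beside 7.16% and 12.7% of all genes, and a median of -0.49. The counted genes include Cxcl1 and Ccl2, of whose DOX UMIs 1 cell held 58.1% and 64% there. In cluster 1 alone 0 of 3 were lower and 1 higher, beside 6.39% and 11.8% of all genes. The 1 gene counted in cluster 2 was neither. In cluster 5 alone 4 of 5 were lower and 0 higher, beside 11.6% and 11.3%.

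Several collagen genes were lower in DOX plus AMH in the pericyte-like cluster, but not all. Col4a1 and Col4a2 encode the 2 common chains of basement membrane collagen IV. Col4a1 was at 2017 (1831 to 2217) and 1066 (955 to 1186) CPM in cluster 1, a log2 ratio of -0.92 (-1.13 to -0.71), and Col4a2 at 1340.0 and 843 CPM, a log2 ratio of -0.67 (-0.92 to -0.42). Col4a5, of another collagen IV chain, ran the other way in cluster 1, with 4 and 27 UMIs and a log2 ratio of 2.19 (0.67 to 4.17), and its partner Col4a6 had 2 and 9 UMIs. In cluster 2 Col4a1 was at 462 and 455 CPM, a log2 ratio of -0.02 (-0.49 to 0.47). Col6a3, a chain of the beaded-filament collagen VI, was at 621 and 210.0 CPM in cluster 1 and 231 and 78.2 CPM in cluster 2, and its log2 ratios were -1.56 (-2.01 to -1.13) and -1.56 (-2.39 to -0.72). Fn1, which encodes fibronectin, was at 221 and 98.6 CPM in cluster 1. Eln, which encodes the elastin of arterial walls, was at 703 and 323 CPM in cluster 2, a log2 ratio of -1.12 (-1.55 to -0.68). The fibrillar collagen genes Col3a1 and Col1a1 were at 5821 and 3948 CPM and at 1904 and 1269 CPM in cluster 1. Timp3, an inhibitor of matrix proteases bound to the matrix, ran the other way in cluster 2, at 616 and 1046 CPM, a log2 ratio of 0.76 (0.38 to 1.17), and was at 710.0 and 789 CPM in cluster 1.

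Of the 37 basement membrane and matrix genes, 23 were counted in cluster 1, with 8 lower and 0 higher at 1.5-fold and a median of -0.31, beside 6.39% of 1613 genes lower and 11.8% higher. In clusters 1, 2 and 5 together 12 of 31 were lower and 4 higher, beside 7.16% and 12.7% of all genes, with a median of -0.50. That sum mixes the clusters in unlike shares. In cluster 2 alone 6 of 18 were lower and 3 higher, beside 8.93% and 14.9%, with a median of -0.22. In cluster 5 alone 0 of 13 were lower and 0 higher, beside 11.6% and 11.3%, with a median of -0.03. Collagen UMIs in barcodes of another cell type were also lower in DOX plus AMH. Col3a1 was at 1582 and 357 CPM, Col1a1 at 1046 and 237 CPM, Col6a3 at 147 and 38.5 CPM and Col4a1 at 79.1 and 23.5 CPM in the leukocyte gate. The 11 stromal markers summed to 1269 and 814 CPM in cluster 1, with cells from 0 and 0 to 4941 and 6294 CPM, and 2 and 1 of the 11 were at 0. Their part in the collagen values was not tested.

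**Figure D4:**
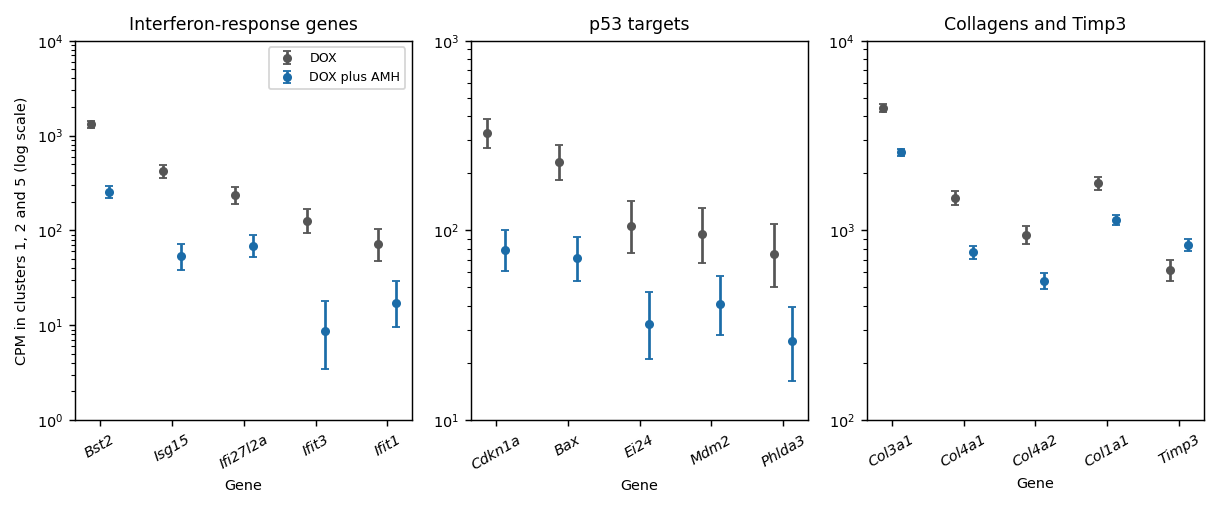
Level in CPM (log scale) of 5 interferon-response genes, 5 p53 targets, and 4 collagen genes with Timp3, in clusters 1, 2 and 5 summed, DOX in grey and DOX plus AMH in blue, with exact 95% Poisson intervals that cover counting error only. The intervals of the 2 libraries do not overlap for Bst2, Isg15 and Col4a1, and Timp3 is the 1 gene drawn that is higher in DOX plus AMH. The sums mix the clusters in unlike shares. With the highest cell of each library left out, the log2 ratio of Col4a1 was -0.94 in cluster 1, 0.16 in cluster 2 and 0.12 in cluster 5.

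Genes of mural identity and contraction had ratios nearer 1 within the clusters than over all members. Over all members 17 of 23 identity genes counted were at least 1.5-fold higher in DOX plus AMH, beside 13% of all genes, with a median log2 ratio of 1.02. In clusters 1, 2 and 5 it was 2 of 19, beside 12.7% of all genes, with a median of 0.10. Rgs5, a rule gene, was at 2229 and 2914 CPM in cluster 1, 1165 and 2180.4 CPM in cluster 2 and 998 and 1480.4 CPM in cluster 5. Pdgfrb had a log2 ratio of -0.13 (-0.42 to 0.17) in cluster 1 and 0.38 (-0.24 to 1.05) in cluster 2, and Kcnj8 -0.18 (-0.69 to 0.34) and -0.70 (-1.84 to 0.54), so each of these intervals spans 0. Of the contractile list, 10 of 17 were higher over all members, beside 13% of all genes, with a median of 0.91. Its medians were -0.11 in cluster 1 and 0.11 in cluster 2. Acta2 was at a log2 ratio of -0.54 (-0.80 to -0.28) in cluster 1 and -0.04 (-0.16 to 0.07) in cluster 2, while Myh11 was at 0.57 (0.05 to 1.12) and 0.49 (0.23 to 0.75). In cluster 1 a single DOX plus AMH cell held 40.4% of the Myh11 UMIs, and the log2 ratio without the highest cells was 0.07.

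Of the vessel-tone genes, Rgs4 and Npy1r were higher in DOX plus AMH within the clusters, while the list as a whole was near the share of all genes in cluster 1. Rgs4, a regulator of G protein signalling found in pericytes, was at 28.4 and 114 CPM in clusters 1, 2 and 5, a log2 ratio of 2.00 (1.10 to 3.05). It had 2 and 20 UMIs in cluster 1 and 9 and 70 UMIs in cluster 2, where it was at 86.6 and 189 CPM. Npy1r, the receptor through which neuropeptide Y constricts vessels, was at 89.3 and 162 CPM in cluster 1, 116 and 256 CPM in cluster 2 and 141 and 314 CPM in cluster 5, the higher in DOX plus AMH in each. Pde5a, the phosphodiesterase that breaks down cyclic GMP and is blocked by sildenafil, was at 188 and 267 CPM and 154 and 267 CPM in clusters 1 and 2, with log2 ratios of 0.51 (-0.05 to 1.09) and 0.79 (0.02 to 1.65). Ednra, the endothelin receptor of the vessel wall, was at 273 and 340.4 CPM and 462 and 442 CPM, with intervals that span 0. Of 36 vasoactive receptors and channels, 2 of 13 were higher and 0 lower in cluster 1, beside 11.8% and 6.39% of all genes, with a median of 0.32. In cluster 2 they were 3 of 9 higher and 0 lower, with a median of 0.15, beside 14.9% of 1388 genes higher and 8.93% lower there.

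Of the Notch pathway genes, Hey2 and Jag1 were higher in DOX plus AMH in the smooth muscle-like cluster, on few DOX UMIs. Hey2, a transcriptional repressor induced by Notch, was at 67.4 and 191 CPM in cluster 2, a log2 ratio of 1.51 (0.39 to 2.87), and at 61.1 and 44.5 CPM in cluster 1, a log2 ratio of -0.46 (-1.65 to 0.75). Jag1, the ligand that mural cells use among themselves, was at 57.8 and 151 CPM in cluster 2 and 94 and 130.4 CPM in cluster 1. Hes1, another Notch target, was at 241 and 283 CPM and 141 and 197 CPM. Heyl, the Notch target most tied to pericytes, was at 113 and 102 CPM in cluster 1. The Hey2 and Jag1 values of cluster 2 rest on 7 and 71 UMIs and 6 and 56 UMIs from 15 and 57 cells, and whether the clusters differ was not tested. Of 23 pathway genes, 2 of 5 counted in cluster 2 were higher, beside 14.9% of all genes, and 0 lower. In cluster 1 0 of 7 were higher, beside 11.8%. The motif TGGGAA, the core of the site of the Notch effector RBPJ, was found on either strand in 40% of the 10 pathway promoters at hand and in 28.3% of all symbols. The CArG box of serum response factor was found in 1 of 14 contractile promoters (7.14%) and in 1.81% of all symbols.

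The angiogenic genes showed no common direction. Angpt1, the pericyte ligand that quiets the endothelium through TIE2, was at 118 (76.1 to 174) and 38.2 (19.7 to 66.7) CPM in cluster 1, a log2 ratio of -1.62 (-2.75 to -0.58) from 25 and 12 UMIs, fewer than the 50 needed to count. In cluster 5 it was at 155 and 225 CPM, with an interval of the ratio that spans 0. Its opponent Angpt2 was at 65.8 and 50.9 CPM in cluster 1, and Vegfa had 6 and 8 UMIs in clusters 1, 2 and 5, too few for a comparison. Of the 30 angiogenic genes, 1 of 5 counted in cluster 1 was higher and 0 lower, beside 11.8% and 6.39% of all genes. In clusters 1, 2 and 5 together 3 of 13 were higher and 2 lower, beside 12.7% and 7.16% of all genes, with a median of 0.05. The 13 PDGF signalling genes gave 8 that were counted there, of which 0 passed 1.5-fold in either direction, beside the same 12.7% and 7.16%.

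Amhr2, the receptor specific to AMH, had few or no UMIs in the mural cells. The members held 3 UMIs in DOX (1.97 CPM, 0.407 to 5.76) and 0 in DOX plus AMH, with an upper limit of 2.94 CPM. In clusters 1, 2 and 5 the counts were 2 (5.16 CPM, 0.625 to 18.6) and 0, with an upper limit of 4.56 CPM. The smooth muscle gate, set on Des and Actg2, held 78 and 118 UMIs (7.37 and 11.6 CPM). Its DOX value lies within the DOX interval of clusters 1, 2 and 5. Its DOX plus AMH value (9.57 to 13.8) lies above their upper limit of 4.56 CPM in that library. The type I receptor gene Bmpr1a was at 132 and 159 CPM in clusters 1, 2 and 5 and the type II receptor gene Bmpr2 at 103 and 127 CPM. Of the targets of BMP-type signalling, Id1 was at 28.4 and 38.3 CPM, Id3 at 217 and 179 CPM and Id4 at 165 and 148 CPM. Id2 was the higher in DOX plus AMH, on few UMIs (7 and 35). With the highest cell of each library left out, the log2 ratio of Id2 was 1.45 (0.06 to 3.17). The log2 ratio of Id3 was -0.27 (-0.67 to 0.13) in the 3 clusters and 1.53 (1.43 to 1.63) in the smooth muscle gate, where it was at 104 and 302 CPM, and whether these ratios differ was not tested. The value of the 3 clusters mixes unlike ones. Without the highest cell of each library, Id3 was at 0.63 (-0.28 to 1.61) in cluster 1 and 0.01 (-0.77 to 0.87) in cluster 2. In cluster 5, with 9 DOX cells, it was at -1.53 (-2.51 to -0.60). Of 35 AMH and BMP signalling genes 8 were counted, with 2 higher and 0 lower, beside 12.7% and 7.16% of all genes, and a median of 0.15, and of 21 TGF-beta signalling genes 2 of 8 were higher, with a median of 0.09.

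Stress and hormone-response genes gave a mixed picture. Hspa1b, an inducible HSP70 chaperone gene, was at 89.3 and 239 CPM in cluster 1 and 86.6 and 229 CPM in cluster 2. Its log2 ratios were 1.42 (0.68 to 2.23) and 1.40 (0.41 to 2.58). The 13 heat shock genes counted in clusters 1, 2 and 5 had a median of 0.19. Of these, 2 were higher and 0 lower, beside 12.7% and 7.16% of all genes. The immediate-early gene Nr4a1, a nuclear receptor induced within minutes of a stimulus, was at 32.9 and 118 CPM in cluster 1 and 250.3 and 256 CPM in cluster 2. Fos, of the AP-1 complex, was at 1165 and 577 CPM in cluster 2, a log2 ratio of -1.01 (-1.34 to -0.68). The immediate-early list accordingly had a median of 0.67 in cluster 1 (3 of 6 higher, beside 11.8% of all genes) and -0.65 in cluster 2 (8 of 14 lower, beside 8.93%). Klf9, a glucocorticoid-induced transcription factor, was at 197 and 299 CPM and 289 and 517 CPM in clusters 1 and 2, the higher in DOX plus AMH in both. Zbtb16, another such gene, had 7 and 52 UMIs. Tsc22d3, Per1 and Fkbp5 were at 38.7 and 42, 25.8 and 40.8 and 2.58 and 6.18 CPM in clusters 1, 2 and 5. Nr3c2, the mineralocorticoid receptor, was at 56.4 and 111 CPM in cluster 1 and 19.3 and 113 CPM in cluster 2, and Nr3c1, the glucocorticoid receptor, at 202 and 178 CPM and 193 and 183 CPM. The oestrogen receptor gene Esr1 was at 1199 and 1718 CPM in cluster 1, a log2 ratio of 0.52 (0.30 to 0.74), and the progesterone receptor gene Pgr at 230.4 and 102 CPM, a log2 ratio of -1.18 (-1.87 to -0.51). These 2 receptors of the uterine cycle thus ran in opposite directions in the pericyte-like cluster.

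**Figure D5:**
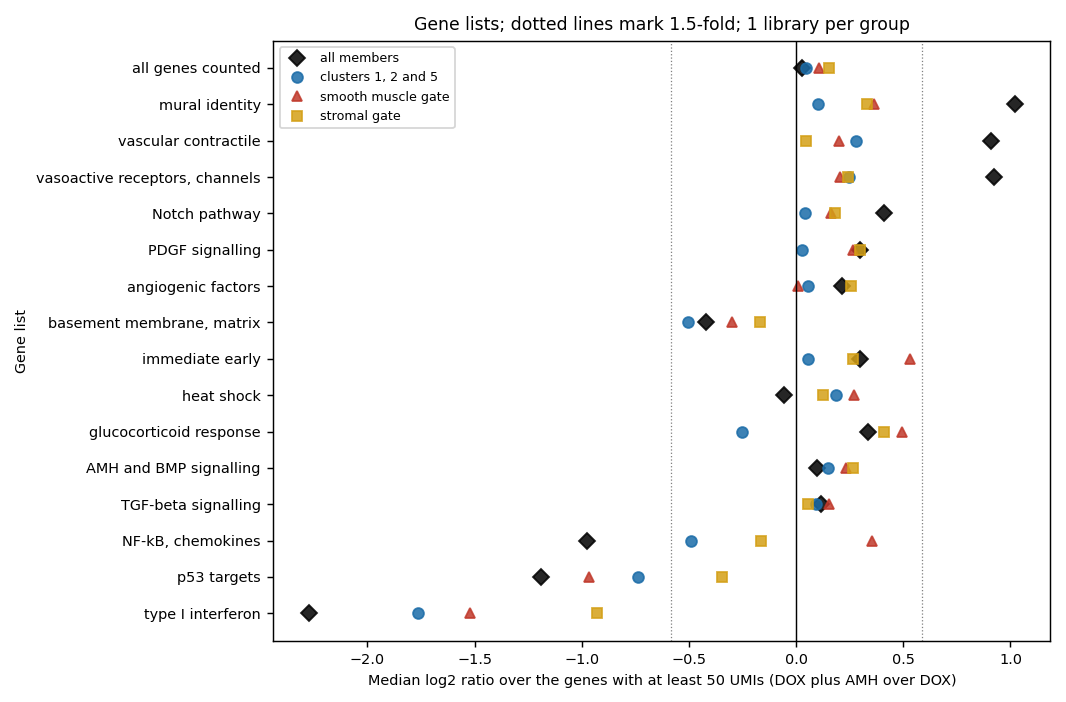
Median log2 ratio (DOX plus AMH over DOX) of 15 gene lists and of all genes counted, over genes with at least 50 UMIs, in all members (black), in clusters 1, 2 and 5 (blue) and in the smooth muscle (red) and stromal (yellow) gates, with dotted lines at 1.5-fold. The mural identity, contractile and vasoactive lists lie near 1 in all members and nearer 0 in clusters 1, 2 and 5, while the interferon and p53 lists lie left of the lower dotted line in both.

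Over all members, some of the genes with the most extreme ratios also differed between the clusters. At 2-fold, 292 of 7229 genes were higher in DOX plus AMH (4.04%) and 385 lower (5.33%), and in clusters 1, 2 and 5 112 of 3840 were higher (2.92%) and 50 lower (1.3%). The 12 lowest included the cell-division genes Top2a, Mki67, Cenpf and Ube2c. Mki67, a marker of cycling cells, was at 88.7 and 1.59 CPM over all members, but at 229 and 7.93 CPM in cluster 3. It was at 0 in both libraries of clusters 1, 2 and 5, so no ratio can be read there. The 16 G2/M genes counted were all at least 1.5-fold lower over all members, beside 12.5% of all genes, and none reached 50 UMIs in clusters 1, 2 and 5. The highest included Rgs4, Hey2, Npy1r and Kcnma1, the last encoding the large-conductance calcium-activated potassium channel of smooth muscle, at 48.1 and 88.9 CPM in cluster 2. Foxs1, a transcription factor of perivascular cells, ran the other way, at 64.5 and 21 CPM in clusters 1, 2 and 5, a log2 ratio of -1.62 (-2.60 to -0.67) from 25 and 17 UMIs. For Sncg, a synuclein gene of smooth muscle, and Mt1, a metallothionein gene, the ratio in clusters 1, 2 and 5 rested largely on 1 cell. The log2 ratio of Sncg was -1.80, and -0.72 without the highest cell of each library. That of Mt1 was -0.67, and 0.91 without them.

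Against all other barcodes that passed, the members were marked by genes beyond the rule. Among the genes of at least 50 CPM with the highest ratios, outside the rule, were Gria2, an AMPA glutamate receptor subunit (54.8 against 1.93 CPM), Stac, an adaptor of voltage-gated calcium channels (79.98 against 3.61 CPM), Olfr558, an olfactory-type receptor gene (80.7 against 4.53 CPM), Sema5b, a semaphorin gene (51.9 against 2.98 CPM), Slc38a11, an amino acid transporter gene (78.5 against 4.73 CPM), and Slc7a2, a transporter of the nitric oxide precursor arginine (274.5 against 18.2 CPM). Trpc6, a cation channel of the vessel wall, and Gucy1b1, a subunit of the cyclic GMP-producing receptor of nitric oxide, were at 177 and 181 CPM against 14.6 and 14.2 CPM. These ratios describe the members as the rule chose them. Stac was at 212 and 280.0 CPM in cluster 1, with a log2 ratio of 0.40 (-0.13 to 0.96), and Olfr558 at 183 and 323 CPM in cluster 2.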

How the data were processed

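Each library was 1 Chromium 3′ v3.1 reaction on cells freed from 5 pooled uteri with papain and collagenase A. Per the submitters' processing notes, Cell Ranger 7.0.0 was used with the mm10 build. The deposited files hold raw UMI counts for 9258 (DOX) and 8083 (DOX plus AMH) barcodes, 129530270 and 97887259 UMIs in all. They carry no cell annotation, so barcodes were filtered and members found by the rule that opens the report.

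UMIs were summed over the members of a library and given as CPM (a gene's UMIs scaled to a common total), with exact 95% Poisson intervals. Ratios are on the log2 scale with DOX as the denominator, their intervals come from an exact binomial split of the 2 counts, and gene counts and list medians take genes of at least 50 UMIs over both libraries. Ratios of single named genes are also given on fewer UMIs, with their intervals. A gene counts as higher or lower past 1.5-fold, or 2-fold where stated. A count of 0 was set against a floor of 3 counts. With 1 library per group no test was run, and intervals cover counting error only.

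Members were clustered with scanpy 1.11.5 and igraph 0.11.9 (1500 variable genes without the 5 rule genes, 15 components, 15 neighbours, resolution 0.5). The members as a whole hold clusters led by genes of another cell type, so clusters are compared by number, and their sizes are not compared between groups. Scrublet, at an expected rate of 0.08, marked 440 and 327 barcodes in all. At its default rate it marked none in DOX plus AMH. Gates on barcodes that are not members were leukocyte (at least 2 UMIs of Ptprc), blood endothelial (at least 4 UMIs from at least 2 of Pecam1, Cdh5, Kdr and Emcn, without Prox1 and Mmrn1), smooth muscle (at least 4 UMIs of Des and 2 of Actg2) and stromal (at least 2 UMIs each of Pdgfra and Dcn, at most 3 of Des). A mesothelial gate took at least 4 UMIs from at least 2 of Msln, Upk3b, Lrrn4 and Upk1b, and an epithelial gate at least 2 UMIs of Epcam. Smooth muscle and stromal barcodes had at most 1 UMI each of Epcam, Pecam1 and Ptprc, and a barcode in more than 1 gate entered none.

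The members, lists and rules were chosen with earlier results of these data known. Genes named were the 12 highest and 12 lowest ratios over all members, up to 4 genes of each list by size of ratio, the mural, contractile and damage-response genes set by name, and the 20 genes of at least 50 CPM with the highest ratio to all other barcodes. Further members of the lists were named after their values were seen. Alternatives covered the cell filter, the rule, the minimum count, the scaling (TMM in edgeR 4.0.16) and per-cell means. The log2 ratio and its interval were tested on simulated Poisson counts, which hold no spread between cells.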

Additional observations from a re-analysis of the deposited data

How the results depend on the processing

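All settings below apply to the sums over all members. The interferon and p53 lists had medians below 0, and the mural identity and contractile lists above 0, under every alternative run, and the share of members was higher in DOX plus AMH under each. Leaving out clusters 3 and 4, an alternative chosen after seeing the data, removed 85 cells. The counts of genes were then 488 higher and 275 lower at 1.5-fold and 112 and 50 at 2-fold. The median log2 ratio was 0.10 for mural identity, 0.28 for contractile genes, 0.25 for vasoactive receptors and channels, 0.027 for PDGF signalling and 0.19 for heat shock, and the log2 ratio changed sign for Fos (-0.066), Heyl (-0.17), Id4 (-0.16), Kcnj8 (-0.37), Pdgfrb (-0.25) and Sgip1 (-0.30).

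With at least 8 UMIs from 3 genes in the rule, the counts were 486 and 325, and 110 and 71. The medians were -1.74 for the interferon list, 0.43 for mural identity, 0.32 for contractile genes, 0.50 for vasoactive receptors and channels and -0.066 for immediate-early genes. Fos was at -0.066 and Col4a6 at -0.072, and the shares of members were 0.784% and 1.54%. With the rule set per 10000 UMIs the counts were 599 and 426, and 151 and 120. The medians were -1.67 for the interferon list, 0.38 for mural identity, 0.50 for vasoactive receptors and channels and 0.028 for PDGF signalling, and the DOX share was 1.19%. With no Des limit the shares were 4.14% and 5.53%, with medians of 0.41 for mural identity, 0.36 for contractile genes, 0.41 for vasoactive receptors and channels and -0.12 for angiogenic factors.

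Leaving out cells with over 1 UMI of Myh11 gave shares of 0.989% and 1.13%, 612 genes higher at 1.5-fold, medians of 0.37 for contractile genes and 1.05 for vasoactive receptors and channels, and -0.13 for Col4a6. Leaving out cells with over 1 UMI of Pdgfra or Actg2 gave shares of 1.05% and 1.85%, and medians of -0.63 for basement membrane and matrix and -0.012 for NF-kB targets and chemokines. Without Sgip1 in the rule the basement membrane and matrix median was -0.62. The mean of per-cell CPM gave medians of -0.61 for basement membrane and matrix, -2.92 for G2/M genes, 0.43 for mural identity and 0.59 for vasoactive receptors and channels. The stricter cell filter gave 1.04 for vasoactive receptors and channels. A minimum of 20 UMIs tested more genes, with 1680 higher and 1582 lower at 1.5-fold and 621 and 779 at 2-fold. A minimum of 100 tested fewer, with 517 and 496, and 168 and 210, and a DNA repair median of -0.65. The cause of the other shifts was not tested.

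TMM scaling, removal of doublets and of barcodes over 5% haemoglobin (the last also chosen after seeing the data) left the counts of genes within 1.5 times and changed the sign of no list median but that of the apoptosis list, which lay near 0. No paired analysis was possible because each group is 1 library, and leaving out a library would leave no comparison. Depth limits clusters 2 and 5 most, with 15 and 9 DOX cells. Animals, dissociation and library preparation cannot be told apart from treatment.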
